A study of Mus musculus with 5 samples.

Results

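Notch signalling genes were followed through the cells of the early mouse ocular area. The set held 10 of the 27998 genes in the count matrix, taken by gene symbol and chosen with earlier results of these data known. It comprised the receptors Notch1, Notch2 and Notch3, the ligands Dll1 and Dll4, the modifiers Lfng, Dtx4 and Nrarp, and the transcriptional effectors Hes1 and Hes5. All tissue came from wild-type C57BL/6J mouse embryos, with 1 embryo at each of 12, 16, 20, 24 and 26 somites, and both optic areas of each embryo were dissected by needle and dissociated with trypsin. Droplet libraries of transcript 3′ ends were then made with a 10x Genomics Chromium kit, per the labels' protocols. The deposited matrix pools 5 libraries that are told apart by a number at the end of each cell barcode, and neither the matrix nor the labels tie that number to a somite stage. Libraries are therefore named 1 to 5 by barcode suffix, are not read as a time course, and are not replicates of a group, so values are given library by library with no p-value.

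Notch receptors sit in the plasma membrane and are activated when a Delta or Jagged ligand on a neighbouring cell binds them. Cleavage then frees the intracellular domain, which joins the DNA-binding protein RBPJ in the nucleus and switches on targets such as the Hes and Hey repressors and the feedback inhibitor Nrarp. In the developing neural tube and eye the pathway is known for holding progenitors back from neuronal differentiation, and in embryonic vessels Dll4 and Notch1 are known for arterial identity and sprouting.

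Promoters are shown for the effector Hes5, the glycosyltransferase gene Lfng and the feedback gene Nrarp, 3 members with large differences between cell classes. RefSeq (GRCm38.p6) gave promoters for 8 of the 10 members, 9 promoters in all, and none was matched for Hes1 and Dtx4. Each sequence is the 250 bases before the RefSeq start, 5′ to 3′ on the gene's strand, and capitals mark TGGGAA or its reverse complement TTCCCA, the core letters known for RBPJ binding. Hes5 is chr4:154960673-154960922 (+), Lfng is chr5:140607091-140607340 (+) and Nrarp is chr2:25180508-25180757 (+).
Hes5: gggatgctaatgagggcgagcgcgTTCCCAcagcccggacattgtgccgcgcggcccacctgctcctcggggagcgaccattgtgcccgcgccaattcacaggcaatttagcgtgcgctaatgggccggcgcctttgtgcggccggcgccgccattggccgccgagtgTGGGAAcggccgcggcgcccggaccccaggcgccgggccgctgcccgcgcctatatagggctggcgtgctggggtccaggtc
Lfng: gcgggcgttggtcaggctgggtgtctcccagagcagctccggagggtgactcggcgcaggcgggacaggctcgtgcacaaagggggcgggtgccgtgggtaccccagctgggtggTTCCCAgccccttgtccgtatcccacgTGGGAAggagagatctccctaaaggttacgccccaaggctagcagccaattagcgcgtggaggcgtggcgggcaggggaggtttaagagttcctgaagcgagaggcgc
Nrarp: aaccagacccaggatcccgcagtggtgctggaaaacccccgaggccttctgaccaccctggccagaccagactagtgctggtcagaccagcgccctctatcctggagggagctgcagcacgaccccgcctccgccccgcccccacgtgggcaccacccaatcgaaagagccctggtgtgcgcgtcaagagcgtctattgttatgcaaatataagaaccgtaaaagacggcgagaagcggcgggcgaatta
The 6 letters occurred, on either strand and without overlap, in the Hes5 window with first bases 226 and 82 bases before the start, and in the Lfng window with first bases 135 and 108 bases before it. The other 7 member promoters, Nrarp among them, did not hold these letters in this window. Of all 32817 promoters of the same length, 21.6% held at least 1 match and 2.77% held 2 or more. A match of 6 letters is a description of the window and not a site of binding.

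The matrix held 8194 barcodes and 257637891 UMIs (distinct RNA molecules), with 41694822 to 72925591 UMIs per library and a median of 20713 (library 5) to 30922 (library 1) UMIs per barcode. After filtering, 8106 cells remained. They were clustered without any Notch gene and named from marker genes. The neuroepithelial-like class held 3641 cells (44.9%), of which 2045 were optic vesicle-like and 1596 other neuroepithelial. Endothelium-like cells numbered 388 and mesenchyme-like cells, from neural crest and head mesoderm together, 2161. The 14 neuroepithelial markers summed to 1130 CPM (counts per 1000000 UMIs) in neuroepithelial-like cells, against 166 CPM in endothelium-like and 116 CPM in mesenchyme-like cells. The 14 endothelial markers summed to 4600 CPM in endothelium-like cells, and the 14 crest mesenchyme markers to 1470 CPM in mesenchyme-like cells. Optic vesicle-like cells numbered 104, 347, 528, 230 and 836 in libraries 1 to 5, and other neuroepithelial cells 407, 394, 430, 356 and 9, so library 5 gives no value for other neuroepithelium. A further 797 cells with little of the nuclear RNA Malat1 and 298 cells of a cluster that passed 10 neuroepithelial markers, with 13 mesenchymal markers at least 2-fold above the other neuroepithelial clusters, were left out of the classes. Another 40 barcode sequences occurred in more than 1 library, on 80 barcodes in all, and leaving these out changed no call on a member.

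Levels are CPM, a gene's UMIs in all cells of a class per 1000000 UMIs of any gene in them. Intervals are exact 95% intervals that cover counting error only. A gene is called higher or lower when the mean of both classes' CPM was at least 5, the ratio was at least 2 either way, its interval left out 1, and every library with at least 20 cells of both classes moved the same way. Levels are compared between classes for 1 gene at a time and not between genes.

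Neuroepithelial-like cells had more RNA of 6 of the 10 members than mesenchyme-like cells, and against endothelium-like cells they had more of 5 members and less of 2. Against mesenchyme, Hes5, Nrarp, Lfng, Notch1, Dtx4 and Hes1 were higher and none was lower, Notch2 and Notch3 were tested and not called, and Dll1 and Dll4 fell under the minimum level. Of the 8775 genes tested in that comparison, 4.83% were called higher, 4.81% lower and 9.64% in either direction. Against endothelium, Hes5, Dtx4, Notch3, Notch2 and Hes1 were higher and Dll4 and Notch1 lower, of 9 members tested, where 10.5% of 8996 genes were called higher, 13.6% lower and 24.1% in either direction. Endothelium-like cells differed from mesenchyme-like cells in 6 of 7 members tested, with Dll4, Nrarp, Notch1 and Lfng higher and Notch2 and Notch3 lower, where 11.7% of 8871 genes were called higher, 7.47% lower and 19.2% in either direction. The median log2 ratio of the members tested was 1.75, 1.75 and 2.92 in these 3 comparisons, in the order given, against -0.05, 0.09 and -0.12 over all genes tested. A member that passed the minimum only through the class where it is high had to differ. The counts of members called and these medians therefore describe the members and no more, also beside the shares of all genes.

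**Figure D1:**
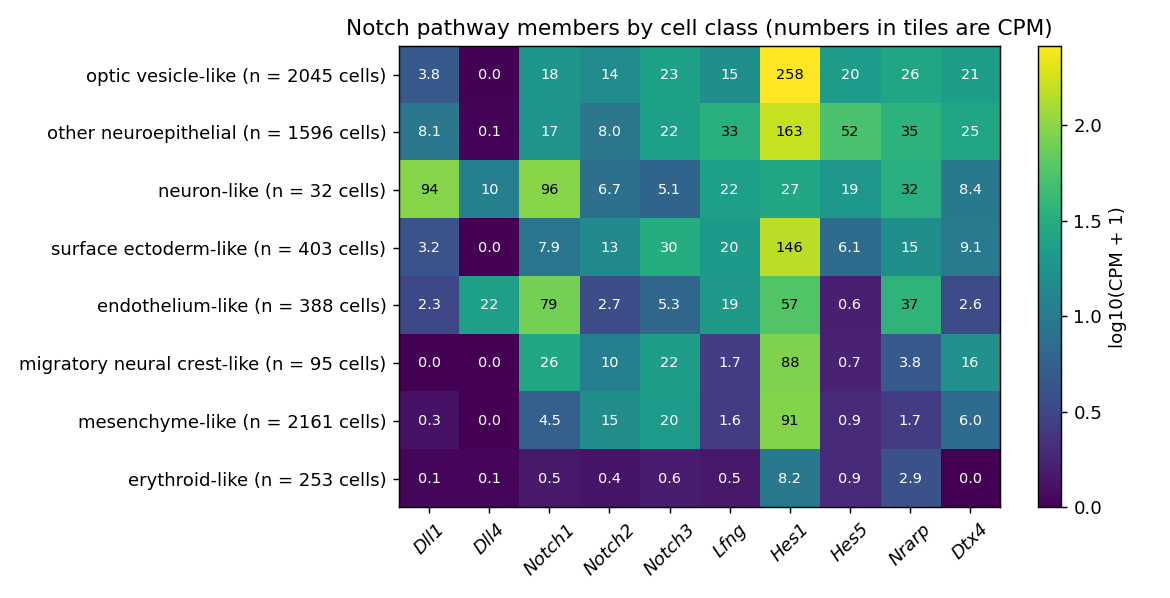
Level of each member (columns) in 8 cell classes (rows, with the number of cells), as CPM printed in each tile and coloured by log10(CPM + 1). Dll4 stands at 21.95 CPM in endothelium-like cells and at 0.0419 CPM over all neuroepithelial-like cells, while Hes5 stands at 51.9 CPM in other neuroepithelial and 0.618 CPM in endothelium-like cells.

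The receptors divided the classes between them. Notch1 (ENSMUSG00000026923, chromosome 2, 26457903 to 26516663 in GRCm38, as for the other positions given) had 7.33, 19.2, 15.6, 20.5 and 23.1 CPM in neuroepithelial-like cells of libraries 1 to 5, against 62.0, 98.6, 66.3, 57.5 and 133 CPM in endothelium-like cells and 3.62, 4.30, 3.77, 5.12 and 6.61 CPM in mesenchyme-like cells. The 3 ranges did not overlap. Notch1 was thus 4.54-fold lower in neuroepithelium than in endothelium (4.21 to 4.89), 3.86-fold higher in neuroepithelium than in mesenchyme (3.40 to 4.39) and 17.5-fold higher in endothelium than in mesenchyme (15.3 to 20.1).

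Notch2 (ENSMUSG00000027878, chromosome 3, 98013527 to 98150361) and Notch3 (ENSMUSG00000038146, chromosome 17, 32120820 to 32166852), receptors that are also known from perivascular cells, had their lowest levels of the 3 classes in endothelium. Notch3 reached 15.6, 27.5, 17.8, 25.2 and 28.6 CPM in neuroepithelial-like cells, against 2.56, 5.88, 5.16, 5.50 and 7.70 CPM in endothelium-like cells and 12.5, 16.9, 16.1, 22.0 and 37.5 CPM in mesenchyme-like cells. It was 4.32-fold higher in neuroepithelium than in endothelium (3.40 to 5.58) and 3.79-fold lower in endothelium than in mesenchyme (2.97 to 4.92). Neuroepithelium and mesenchyme overlapped, at a ratio of 1.14 (1.07 to 1.22), with 4 of 5 libraries higher in neuroepithelium.

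Notch2 was likewise lowest in endothelium, and it stood out in library 5. Its level was 7.07, 8.87, 8.45, 8.53 and 23.2 CPM in neuroepithelial-like cells, against 1.71, 4.98, 1.47, 2.96 and 3.59 CPM in endothelium-like cells and 6.90, 8.02, 11.3, 13.1 and 40.1 CPM in mesenchyme-like cells. Library 5 was the highest library in neuroepithelium and in mesenchyme and not in endothelium. Notch2 was 4.24-fold higher in neuroepithelium than in endothelium (3.04 to 6.12) and 5.39-fold lower in endothelium than in mesenchyme (3.85 to 7.79), with all 5 libraries moving the same way in each comparison. Both calls need the minimum of 5 CPM, as the mean of the classes is under 10 CPM. The ratio of neuroepithelium to mesenchyme was 0.79 (0.72 to 0.86) and met no call, with 2 libraries higher and 3 lower.

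The ligands differed in where they were measured. Dll4 (ENSMUSG00000027314, chromosome 2, 119325784 to 119335962) had 27.4, 24.0, 22.3, 19.0 and 15.9 CPM in endothelium-like cells of libraries 1 to 5, from 284 UMIs. It had 5 UMIs in all 3641 neuroepithelial-like cells (0.0419 CPM) and 1 UMI in all 2161 mesenchyme-like cells (0.0165 CPM). Dll4 was 524-fold lower in neuroepithelium than in endothelium (222 to 1626), and the ratio of endothelium to mesenchyme, which rests on that 1 UMI, was 1334 (237.5 to 52870). The 32 neuron-like cells had 6 UMIs of Dll4 (10.1 CPM, 3.71 to 22.0).

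Dll1 (ENSMUSG00000014773, chromosome 17, 15367354 to 15376872), the ligand of differentiating neural cells, had 12.7, 9.07, 4.69, 2.54 and 1.34 CPM in neuroepithelial-like cells, against 2.99, 3.62, 1.23, 2.11 and 2.57 CPM in endothelium-like cells and 0.836, 0.248, 0.0739, 0.0915 and 0.203 CPM in mesenchyme-like cells. Its mean level fell under the minimum in all 3 comparisons, which gave ratios of 2.35 over endothelium (1.63 to 3.52, higher in 4 of 5 libraries) and 17.4 over mesenchyme (11.1 to 29.2, higher in 5 of 5 libraries). The neuron-like cells had 94.3 CPM of Dll1 (71.2 to 122.5), above the 8.14 CPM (7.34 to 9.01) of other neuroepithelial cells, the next highest class shown. Notch1 was likewise high there, at 96.0 CPM (72.7 to 124), whose interval overlapped that of endothelium (74.7 to 84.5). These cells came from 4 libraries with 14, 3, 11 and 4 cells, and none from library 1.

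Among the modifiers, Lfng and Nrarp were measured in neuroepithelium and in endothelium, and Dtx4 mainly in neuroepithelium. Lfng (ENSMUSG00000029570, chromosome 5, 140607320 to 140615545) codes for the Fringe glycosyltransferase that changes which ligands a Notch receptor answers to. It had 38.5, 32.4, 21.0, 19.2 and 6.36 CPM in neuroepithelial-like cells, against 18.0, 16.7, 17.9, 16.1 and 26.7 CPM in endothelium-like cells and 3.42, 2.23, 0.886, 0.640 and 0.305 CPM in mesenchyme-like cells. Neuroepithelium exceeded endothelium in 4 libraries and lay below it in library 5. The pooled ratio of neuroepithelium to endothelium was 1.17 (1.03 to 1.34), while Lfng was 13.6-fold higher in neuroepithelium than in mesenchyme (11.1 to 16.8) and 11.6-fold higher in endothelium than in mesenchyme (9.14 to 14.8, and 17.9-fold without library 1).

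Nrarp (ENSMUSG00000078202, chromosome 2, 25180758 to 25183339), a direct target that dampens Notch signalling, had 25.8, 36.3, 23.1, 36.0 and 30.8 CPM in neuroepithelial-like cells, against 53.9, 32.6, 30.9, 30.9 and 39.0 CPM in endothelium-like cells and 1.95, 1.41, 1.48, 1.46 and 2.24 CPM in mesenchyme-like cells. Neuroepithelium and endothelium overlapped, with a ratio of 0.81 (0.73 to 0.89). Nrarp was 17.4-fold higher in neuroepithelium (14.3 to 21.4) and 21.6-fold higher in endothelium (17.4 to 27.0) than in mesenchyme, where its 1.70 CPM did not exceed the 2.94 CPM measured in erythroid-like cells. Dtx4 (ENSMUSG00000039982, chromosome 19, 12466338 to 12501454), an E3 ubiquitin ligase of the Deltex family, had 14.8 to 28.8 CPM over the libraries in neuroepithelial-like cells, against 1.28 to 3.59 CPM in endothelium-like and 4.02 to 8.29 CPM in mesenchyme-like cells. It was 8.71-fold higher than in endothelium (6.22 to 12.6) and 3.79-fold higher than in mesenchyme (3.40 to 4.24), and the 3 ranges did not overlap.

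The effectors were both highest in neuroepithelium, Hes1 in degree and Hes5 nearly by presence. Hes1 (ENSMUSG00000022528, chromosome 16, 30064384 to 30067796), a repressor of proneural genes that many progenitor types express, had 112.5, 197, 193, 226 and 349.7 CPM in neuroepithelial-like cells, against 55.1, 50.2, 48.4, 62.6 and 75.5 CPM in endothelium-like cells and 68.6, 99.8, 76.1, 96.9 and 127 CPM in mesenchyme-like cells. It was higher in every library, by 3.92-fold over endothelium (3.64 to 4.22) and 2.44-fold over mesenchyme (2.37 to 2.51). Endothelium lay below mesenchyme in all 5 libraries, at a ratio of 0.62 (0.57 to 0.67) that did not reach the fold required. Among the other named classes, the next in order were surface ectoderm-like cells with 146 CPM (139 to 153), mesenchyme and, overlapping it, migratory neural crest-like cells with 87.5 CPM (77.0 to 99.0).

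Hes5 (ENSMUSG00000048001, chromosome 4, 154960923 to 154962371), a related repressor of neural progenitors, had 40.9, 49.1, 32.5, 45.3 and 2.29 CPM in neuroepithelial-like cells. It had 1.28, 1.36, 0.491, 0 and 0 CPM in endothelium-like cells and 0.767, 1.41, 1.33, 0.823 and 0.203 CPM in mesenchyme-like cells. Library 5 had the lowest neuroepithelial level of the 5 libraries and the highest for Hes1. Hes5 was 52.1-fold higher in neuroepithelium than in endothelium (26.4 to 120.8) and 34.4-fold higher than in mesenchyme (26.5 to 45.5). The erythroid-like cells, which are not known to use Hes5, had 0.919 CPM (0.441 to 1.69), so the endothelial level of 0.618 CPM and the mesenchymal level of 0.938 CPM were not above that of a class that should lack the gene. Surface ectoderm-like cells had 6.12 CPM (4.83 to 7.65), above both.

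Of a further 37 pathway genes, 1 of 22 tested was called between neuroepithelium and mesenchyme, where 9.64% of all genes were called in either direction. Between neuroepithelium and endothelium 10 of 26 tested were called, where the share of all genes was 24.1%. Between endothelium and mesenchyme 10 of 26 were called, where that share was 19.2%. Against mesenchyme, 22 were tested and Hes6 alone was called, 2.20-fold higher in neuroepithelium (2.05 to 2.35). Against endothelium, Dlk1, a non-canonical ligand, was 48.8-fold higher in neuroepithelium (40.3 to 59.6), with Rfng and Numbl also higher, and Mfng, Hey1, Notch4, Maml2, Numb, Aph1a and Adam10 were lower, 10 genes of 26 tested. Endothelium exceeded mesenchyme in 8 genes of 26 tested, among them the Fringe gene Mfng (94.2 against 0.329 CPM), the endothelial receptor Notch4 (30.9 against 1.88 CPM) and the arterial effector Hey1 (42.8 against 16.1 CPM). Dlk1 and Rfng were the 2 lower genes there. The median log2 ratio of these genes was -0.05, -0.22 and 0.16 in the 3 comparisons, in the same order as above, against -0.05, 0.09 and -0.12 over all genes tested.

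Within the neuroepithelium, Lfng alone met the call between optic vesicle-like and other cells. It had 28.4, 26.3, 18.0 and 9.74 CPM in optic vesicle-like cells of libraries 1 to 4, against 41.6, 39.99, 26.3 and 27.0 CPM in other neuroepithelial cells, and 6.20 CPM in optic vesicle-like cells of library 5. All 4 libraries with both kinds were lower in the optic vesicle, with ratios of 0.68, 0.66, 0.68 and 0.36. The pooled level was 2.25-fold lower (2.08 to 2.43), where 0.968% of 8674 genes were called higher, 0.911% lower and 1.88% in either direction. That call rests on library 5, since without it the ratio was 0.58, and it was 0.53 with libraries weighted equally, both short of the fold required. The Fringe gene Mfng was the 1 further pathway gene called of 25 tested, 2.44-fold lower (2.15 to 2.78), with ratios of 0.48, 0.54, 0.43 and 0.36 in libraries 1 to 4. The median log2 ratio was -0.21 over the 9 members tested and -0.02 over all genes tested.

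Hes5 and Dll1 differed between the 2 kinds of neuroepithelium in some libraries and not in others. The border between the 2 kinds rests on marker scoring that was adjusted after the members' levels had been seen. Differences between the 2 kinds, for Lfng as well, are therefore not independent of those levels. Hes5 had 37.4, 50.3, 26.0, 7.36 and 1.87 CPM in optic vesicle-like cells of libraries 1 to 5, against 42.0, 47.7, 43.9 and 76.2 CPM in other neuroepithelial cells of libraries 1 to 4. The 2 kinds did not differ beyond counting error in libraries 1 and 2, with ratios of 0.89 (0.73 to 1.08) and 1.06 (0.93 to 1.20), and the ratio was 0.59 (0.53 to 0.66) in library 3 and 0.097 (0.074 to 0.12) in library 4. Dll1 had 6.90, 9.58, 4.01, 1.02 and 1.35 CPM in the optic vesicle, against 14.5, 8.42, 5.89 and 3.77 CPM elsewhere, with a ratio above 1 in library 2 only. Library 2 was the only one with a ratio above 1 for Hes5 or Dll1, so leaving it out took away the library that went against a call. Without it, Hes5 (ratio 0.27, 0.25 to 0.29) and Dll1 (0.33, 0.27 to 0.40) met the call beside Lfng (0.40, 0.37 to 0.44). The share of all genes called without library 2 is not set beside these calls. These pooled ratios count the 836 optic vesicle-like cells of library 5 against 9 other neuroepithelial cells from it, so they also carry the difference between libraries, and the ratios within libraries above do not.

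Hes1 went the other way in the libraries where Hes5 was low. Its level in optic vesicle-like cells was 103, 207, 202, 283 and 350.5 CPM in libraries 1 to 5, against 115.5, 184, 177 and 179 CPM in other neuroepithelial cells of libraries 1 to 4. The ratio was 0.89 (0.80 to 0.999) in library 1 and 1.12, 1.14 and 1.58 in libraries 2 to 4, short of the fold required in each. How cells are assigned moved the levels of the small optic vesicle groups. With the classes rebuilt at Leiden resolution 2, Hes5 in optic vesicle-like cells of library 4 was 38.1 CPM in place of 7.36 CPM, while under all 3 rebuilt clusterings the library 5 levels of Hes1 and Hes5 stayed within their intervals. Whether the difference between libraries follows stage, embryo, dissected region or library preparation cannot be told apart, as each library is 1 embryo and carries no stage name.

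**Figure D2:**
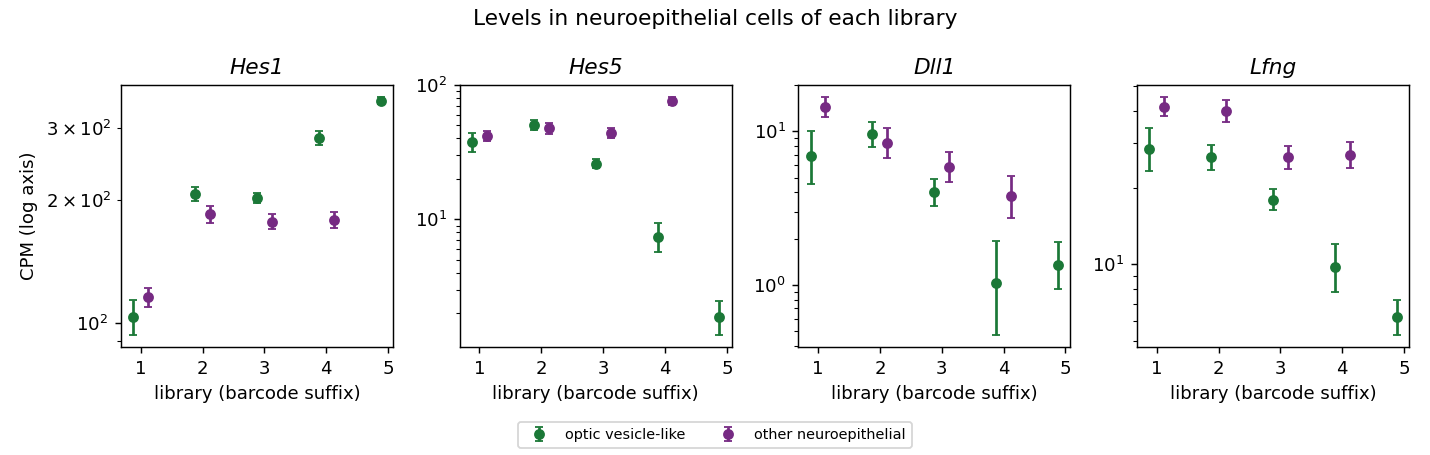
Level (CPM, log axis) of Hes1, Hes5, Dll1 and Lfng in optic vesicle-like and other neuroepithelial cells of each library (x axis, numbered by barcode suffix), as points with exact 95% Poisson intervals. Library 5 has too few other neuroepithelial cells to plot, and its optic vesicle-like cells have the highest Hes1 (350.5 CPM) and the lowest Hes5 (1.87 CPM).

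Sub-clusters of the neuroepithelium mostly came from 1 or 2 libraries. Low Hes5 beside high Hes1 was seen in the optic vesicle-like ones of libraries 4 and 5 and not among the other 10. Among those 10, the other neuroepithelial sub-cluster led by Fabp7, with 152 of its 162 cells from library 4, had 41.6 CPM of Hes5 and 142 CPM of Hes1. The highest Hes5 level, 145 CPM (137 to 154.5), was in 244 other neuroepithelial cells led by Sepp1, and Hes1 was at 262 CPM there, the highest of those 10. These cells passed 5 optic vesicle markers, the number required, and were named other neuroepithelial for their 3 diencephalic markers. Six6 and Rax, both optic vesicle markers, stood at 543 and 117 CPM there, against 541.5 and 266 CPM in the sub-cluster led by Aldh1a1. Nkx2-1, a diencephalic marker, stood at 118 CPM in the cells led by Sepp1 and at 0 CPM in those led by Aldh1a1. Six6 and Rax were also high, at 216.6 and 226.9 CPM, in the other neuroepithelial cells led by Tbx3, with Nkx2-1 at 174.5 CPM. The sub-clusters with the lowest Hes1, at 123 CPM and 124 CPM, had 16.2 CPM and 55.7 CPM of Hes5. The ventral patterning gene Shh stood at 105.2 CPM in the cells led by Sepp1 and no lower, at 110.5 CPM, in those led by Tbx3, which had 15.6 CPM of Hes5 (12.2 to 19.7). The cells led by Sepp1 came mainly from libraries 2, 3 and 4, with 62, 110 and 69 cells. The next was an optic vesicle-like sub-cluster of 186 cells, 175 of them from library 2, with 77.0 CPM of Hes5 (70.7 to 83.7). The cells led by Sepp1 had the highest Nrarp level, 55.2 CPM (49.9 to 60.9), and an interval that overlapped the 48.9 CPM (43.2 to 55.1) of the sub-cluster led by Fabp7. Notch1 in the cells led by Sepp1, at 39.4 CPM (35.0 to 44.3), was matched only by the 40.2 CPM (32.0 to 49.8) of the sub-cluster led by Rpgrip1. With the classes rebuilt at Leiden resolution 2, 130 cells with Sepp1 and Hes5 among their leading genes were named optic vesicle-like. Another 100 cells led by Sepp1 stayed other neuroepithelial.

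At the other end, 5 optic vesicle-like sub-clusters had 0.964 to 4.15 CPM of Hes5 beside 294.7 to 415 CPM of Hes1. One, led by the pigment cell genes Trpm1, Pmel and Dct (308 cells), had 1.19 CPM of Hes5 (0.650 to 1.995) and 295 CPM of Hes1. Another, led by Aldh1a1, a retinoic acid synthesis gene (169 cells), had 4.08 CPM (2.53 to 6.24) and 375 CPM. The sub-cluster led by Cp, with the optic stalk gene Pax2 among its leading genes (245 cells), had 0.964 CPM (0.354 to 2.10) and 415 CPM. These 3 came almost wholly from library 5, with 305, 166 and 243 cells from it, and the sub-cluster led by Hmx1 from library 4 with 180 of its 196 cells. Low Hes5 with high Hes1 was found in sub-clusters with pigment and with stalk genes, but only 10 cells of these 5 sub-clusters came from library 3 and none from library 1. Dll1 stood at 0.389 to 2.91 CPM in the same 5 sub-clusters, against 17.6 CPM (14.9 to 20.7) at its highest, in 315 cells led by Wnt8b, 267 of them from library 1.

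**Figure D3:**
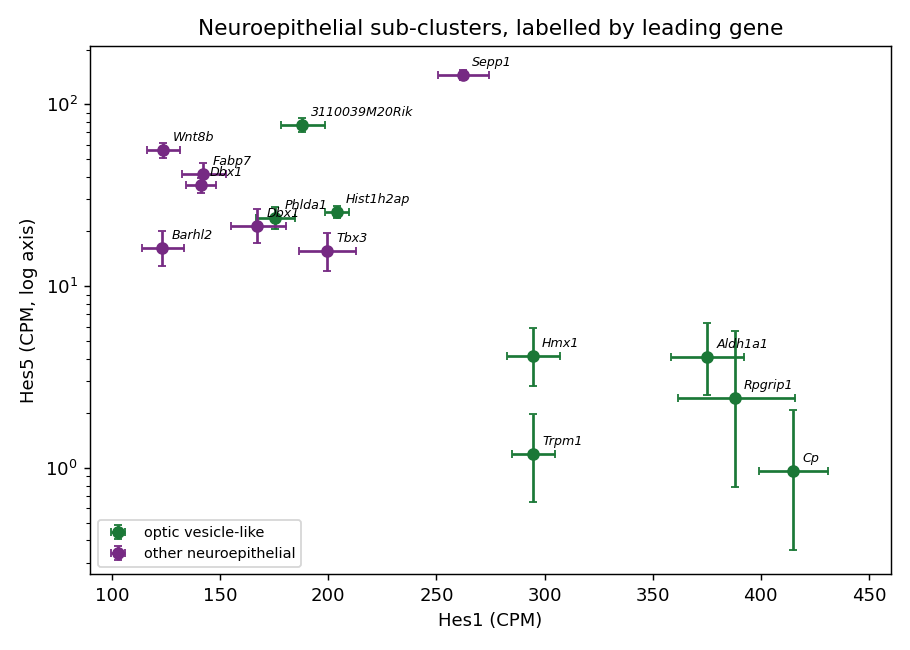
Hes5 (y axis, CPM, log axis) against Hes1 (x axis, CPM) in the 15 neuroepithelial sub-clusters, each point labelled with its leading gene and drawn with exact 95% Poisson intervals. The 5 optic vesicle-like sub-clusters at the lower right have 0.964 to 4.15 CPM of Hes5, and the sub-cluster led by Sepp1 has 145 CPM.

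Detection in single cells was compared after each cell was thinned to 10000 UMIs. Hes1 was detected in 84.8% of 1996 optic vesicle-like cells (83.1 to 86.3%), 72.7% of 1548 other neuroepithelial cells (70.4 to 74.9%), 36.0% of 381 endothelium-like cells (31.1 to 41.0%) and 54.1% of 2093 mesenchyme-like cells (51.9 to 56.2%). Erythroid-like cells gave 7.91% (4.90 to 11.9%) of 253. Without thinning the shares were 97.4% in optic vesicle-like and 91.5% in other neuroepithelial cells, at median depths of 30372 and 26163 UMIs.

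Hes5 was detected in 11.2% of optic vesicle-like cells (9.87 to 12.7%), 25.3% of other neuroepithelial cells (23.2 to 27.6%), 0.262% of endothelium-like and 0.908% of mesenchyme-like cells. Among the 253 erythroid-like cells 0 had Hes5, which allows a share of up to 1.19% (3 cells of the total, as for each 0 given here), so the endothelial and mesenchymal shares lie within what that background allows. The optic vesicle-like share was 18.6%, 27.7%, 15.3%, 5.22% and 2.14% in libraries 1 to 5, against 25.7%, 20.1%, 24.7% and 31.2% of other neuroepithelial cells in libraries 1 to 4. Libraries 4 and 5 had the lowest shares in the optic vesicle, while library 4 had the highest elsewhere. For library 4 this rests on which sub-clusters are counted as optic vesicle-like, given its 38.1 CPM of Hes5 at Leiden resolution 2. In the low-Malat1 cells left out of the classes, 61.2% had Hes1 and 9.14% had Hes5.

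Both effectors were found in the same cell in 8.97% of optic vesicle-like cells (7.75 to 10.3%) and 19.5% of other neuroepithelial cells (17.6 to 21.6%), with 0 of 381 endothelium-like cells, which allows up to 0.787%, and 10 of 2093 mesenchyme-like cells. Among other neuroepithelial cells, Hes5 was detected in 28.6%, 21.3%, 24.8% and 33.7% of Hes1-positive cells, against 21.1%, 16.3%, 24.2% and 23.9% of Hes1-negative cells in libraries 1 to 4. The share was higher in Hes1-positive cells in 4 of 4 libraries, though the intervals overlapped in each. Mean Hes1 was 1.4, 2.36, 1.90 and 2.31 UMIs in Hes5-positive cells, against 1.19, 1.83, 1.71 and 1.68 UMIs in Hes5-negative cells of the same libraries.

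In the optic vesicle no such direction was seen. Hes5 was detected in 18.3%, 27.1%, 15.2%, 5.88% and 2.10% of Hes1-positive cells, against 19.4%, 29.7%, 15.8%, 0% (0 of 26, which allows up to 11.5%) and 2.56% of Hes1-negative cells in libraries 1 to 5, so that 1 of 5 libraries was higher. In library 4 all 12 cells with Hes5 also had Hes1, where 204 of the 230 cells had Hes1. The direction changed with depth and threshold, with 3 of 5 libraries higher at 5000 UMIs, 2 of 5 with at least 2 UMIs required and 0 of 5 without thinning. The same counts were 3 of 4, 4 of 4 and 3 of 4 for other neuroepithelial cells. Mean Hes1 in optic vesicle-like cells with Hes5 was 0.842, 1.74, 2.15, 3.25 and 3.76 UMIs in libraries 1 to 5. In those without Hes5 it was 1.18, 2.31, 2.02, 2.78 and 3.62 UMIs, so libraries 1 and 2 went against libraries 3 to 5. A cell counted without Hes1 or Hes5 at this depth may still hold the RNA.

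**Figure D4:**
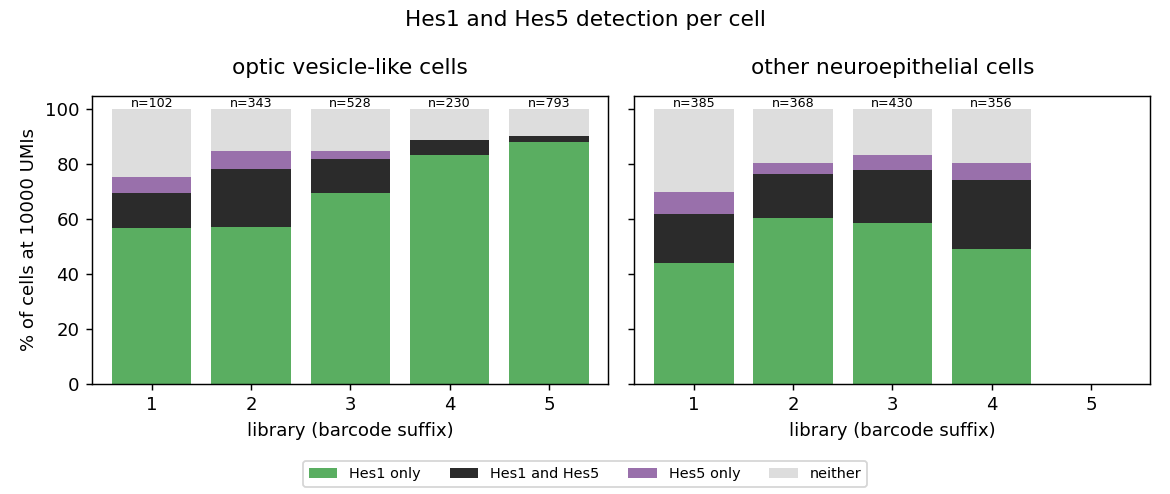
Share of cells (y axis, percent, each cell thinned to 10000 UMIs) with Hes1 only, with Hes1 and Hes5, with Hes5 only and with neither, by library (x axis), for optic vesicle-like cells on the left and other neuroepithelial cells on the right, with the number of cells above each bar. The share with both is 1.89% in optic vesicle-like cells of library 5, against 25.0% in other neuroepithelial cells of library 4.

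Cells with the ligand Dll1 were a small part of the neuroepithelium, 190 of 3544 thinned cells, and made up 13.1%, 7.45%, 4.70%, 2.90% and 1.37% of libraries 1 to 5. Dll1 is known to mark cells that leave the progenitor state, and 17 genes of neurogenesis were compared between Dll1-positive and Dll1-negative cells. The neuron-like cells were a class apart and are not among these cells. That class was named with Tubb3, Elavl3, Elavl4, Dcx, Neurod1 and Nhlh1 among its markers, which are also on this list. The comparison therefore cannot show genes of cells that had already become neuron-like. A gene was called when the shares differed at least 2-fold, their intervals did not overlap, and every library with at least 10 Dll1-positive cells moved the same way. Of the 8651 genes detected in at least 5% of these cells, 0.0347% were called higher, 0.347% lower and 0.381% in either direction, and 5 of the 17 genes reached that share, with 0 called. Gadd45g, a growth arrest gene below that share, was the 1 gene of the list called, detected in 7.37% of Dll1-positive cells (4.09 to 12.1%), against 2.92% of Dll1-negative cells (2.38 to 3.55%), and at 5000 UMIs none was called. Hes5 was detected in 27.4% of Dll1-positive cells (21.2 to 34.3%), against 16.8% of Dll1-negative cells (15.6 to 18.1%), and Hes1 in 67.4% (60.2 to 74.0%), against 80.2% (78.8 to 81.5%). These shares pool libraries that differ in Dll1, Hes5 and Hes1. Within libraries, 4 of 5 were higher for Hes5 and 3 of 5 lower for Hes1 in Dll1-positive cells, and no member was called.

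In the endothelium, Dll4-positive cells carried 4 of 12 arterial genes more often, and 2 of 5 venous genes less often, than Dll4-negative cells. Dll4 was detected in 61 of 381 thinned cells, or 21.7%, 16.9%, 17.7%, 12.7% and 10.4% of libraries 1 to 5, and the direction was read in the 3 libraries with at least 10 such cells. None of the arterial genes was lower. Of the 8511 genes detected in at least 5% of these cells, 0.975% were called higher, 0.552% lower and 1.53% in either direction. Of the lists, 8 arterial genes reached that share, with 4 called higher, and 5 venous genes, with 2 called lower. At 5000 UMIs 3 arterial genes were called, Gja4, Hey1 and Gja5, and Efnb2 and Unc5b were not. The gap junction gene Gja4 was found in 70.5% of Dll4-positive cells (57.4 to 81.5%), against 16.6% of Dll4-negative cells (12.7 to 21.1%), and the Notch effector Hey1 in 67.2% (54.0 to 78.7%), against 12.5% (9.08 to 16.6%). The netrin receptor gene Unc5b was found in 62.3%, against 15% of Dll4-negative cells, and the ephrin gene Efnb2 in 52.5%, against 21.2% of Dll4-negative cells.

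The venous genes called were Nr2f2 and Nrp2. Nr2f2, the nuclear receptor known for venous identity, was detected in 11.5% of Dll4-positive cells (4.74 to 22.2%), against 46.9% of Dll4-negative cells (41.3 to 52.5%). Nrp2 was detected in 27.9% (17.1 to 40.8%), against 63.1% (57.6 to 68.4%), and at 5000 UMIs Nr2f2 alone remained lower. Among the members, Nrarp was found in 44.3% of Dll4-positive cells (31.5 to 57.6%), against 23.8% of Dll4-negative cells (19.2 to 28.8%), and Notch1 in 62.3% (49.0 to 74.4%), against 45.6% (40.1 to 51.3%). Neither was called, while at 5000 UMIs Nrarp and Lfng were.

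The high Notch2 level of library 5 moved with the depth of the cell. In neuroepithelial-like cells of library 5, Notch2 was 80.8 CPM in cells under 10000 UMIs, 68.2 CPM from 10000 to 15000, 56.5 CPM from 15000 to 20000, 26.1 CPM from 20000 to 30000 and 11.2 CPM (9.55 to 13.0) from 30000 UMIs upward. Cells of at least 30000 UMIs in libraries 1 to 4 had 6.83, 9.41, 8.73 and 9.68 CPM, so the deepest neuroepithelial cells of library 5 lay close to those of the other libraries. The mesenchyme-like cells of library 5 had 132, 93.5, 26.2, 20.4 and 38.2 CPM over the same depths. From 30000 UMIs upward they stayed above the other libraries, at 38.2 CPM (27.1 to 52.2), against 6.49, 7.64, 10.3 and 11.7 CPM in libraries 1 to 4. A gene outside the pathway, Rpgrip1, had 534, 389, 211, 91.8 and 41.1 CPM over these depths in neuroepithelial-like cells of library 5. Notch1 in library 5 was highest in the shallowest cells, at 36.5 CPM, but did not fall further over the deeper ones, with 21.2, 22.8, 23.9 and 22.6 CPM. In libraries 1 to 4 the shallowest groups also stood higher, at 19.6, 34.5, 20.8 and 22.1 CPM of Notch2 in neuroepithelial-like cells. They lay under 10000 UMIs in libraries 1 and 2, and from 10000 to 15000 in libraries 3 and 4. They rest on 4, 9, 8 and 10 UMIs, and their intervals overlapped those of the deepest cells except in library 2. Rpgrip1 had 113, 199, 107 and 97.4 CPM there, against 49.2, 58.3, 39.1 and 32.8 CPM in the deepest cells. Notch1 also stood higher in these shallowest groups, at 19.6, 34.5, 31.3 and 46.5 CPM, against 7.02, 22.35, 15.9 and 20.1 CPM.

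Notch2 was the second leading gene of a sub-cluster of 115 optic vesicle-like cells, all from library 5 and led by Rpgrip1, with 109 CPM of Notch2 (95.2 to 124) at a median of 14698 UMIs per cell. Notch2 also led a cluster of 109 mesenchyme-like cells, all from library 5, at a median of 10348 UMIs, with Rpgrip1 among its leading genes. The level in endothelium-like cells of library 5 was 1.99 CPM from 20000 to 30000 UMIs and 2.72 CPM above. With cells under 20000 UMIs left out, the ratio of neuroepithelium to mesenchyme was 0.87 (0.79 to 0.97), and the calls on Notch2 against endothelium were kept. The part of depth in the Notch2 level of library 5 was not tested.

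**Figure D5:**
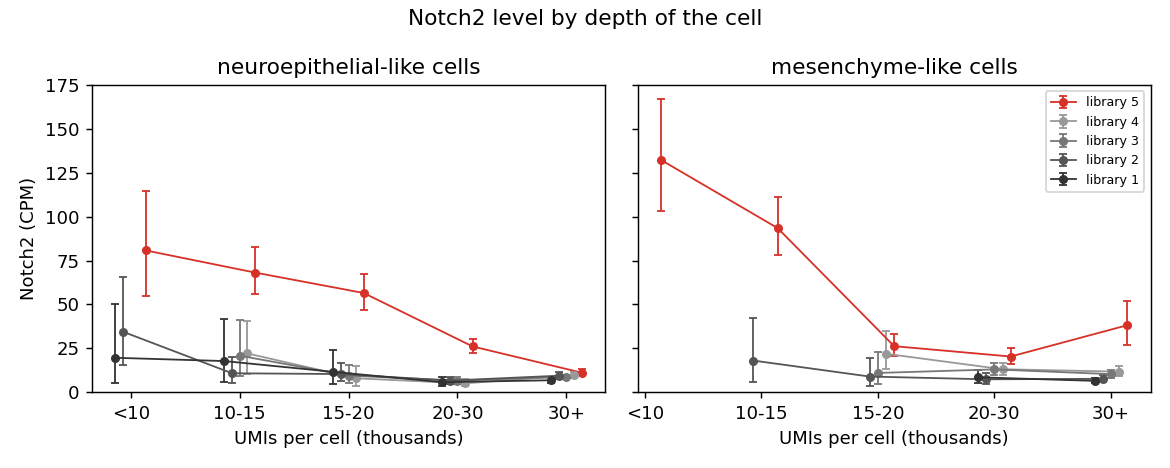
Notch2 level (CPM, with exact 95% Poisson intervals) in cells grouped by their UMIs (x axis), for neuroepithelial-like cells on the left and mesenchyme-like cells on the right, 1 line per library, for groups of at least 20 cells. Library 5 stands at 80.8 CPM and 132 CPM in its shallowest cells, above its 11.2 CPM and 38.2 CPM in the deepest.

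The genes whose pattern was most like each member were sought over 24 units of class and library with at least 50 cells, by Pearson correlation of log2(CPM + 1), as a description of units that share libraries and depth. Dll4 was most like the endothelial adhesion gene Icam1 and Abi3 (r = 0.998 each) and Icam2 (0.997). Hes5 was most like H2-K1 (0.955), the forebrain gene Fezf1 (0.952) and Pantr1 (0.931), and Hes1 like Coprs (0.957), Snx24 (0.949) and Gm1673 (0.948). Notch1 was most like Plagl1 (0.949), Notch2 like Bcl9 (0.940), Notch3 like Abhd17c (0.962), Dll1 like Rtn3 (0.858), Lfng like Mapk12 (0.904), Nrarp like Ddah1 (0.941) and Dtx4 like Celf2 (0.935). Between members, Notch2 and Notch3 (0.886), Dll1 and Lfng (0.877) and Hes1 and Notch3 (0.876) were the most alike, and the nearest member to Hes5 was Dtx4 (0.763).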

How the data were processed

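Single-cell RNA libraries of dissected ocular areas from 5 wild-type embryos were used. The deposited values are UMI counts, whole numbers per gene and cell that the authors pooled in 1 matrix without normalisation visible in the values. The submitters' processing notes name Cell Ranger and the build mm10 (GRCm38), and the Cell Ranger version is not given in the sources used here.

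Kept barcodes had 1000 genes or more and 10% mitochondrial UMIs or less; 22 failed on mitochondrial share and 0 on genes. Scrublet, in scanpy 1.11.5, called 66 doublets (0.808%, and 0.403 to 1.46% by library, at an expected 6%), so doublets may remain. The mixed clusters, with a median of 58606 UMIs per cell, were in no class. Log values per 10000 UMIs, 2000 variable genes, 30 components and 15 neighbours gave 23 Leiden clusters at resolution 1 and, in the neuroepithelium alone, 15 sub-clusters. No Notch, ribosomal, mitochondrial, haemoglobin or sex-linked gene was used for clustering, and libraries were not integrated.

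The members and lists were chosen with earlier results of these data known. How markers were scored was set and adjusted after the clusters and the members' levels in them had been seen. A marker passed at 10 UMIs or more when its level, plus 5 CPM, was 2-fold higher. A name needed 3 passing markers (5 for neuron and endoderm), neuroepithelial-like needed 7 of 14, and optic vesicle-like needed 5 of its list with fewer than 3 telencephalic and fewer than 3 diencephalic markers 2-fold over other neuroepithelium. Clusters under 1000 CPM of Malat1 stayed unnamed.

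Ratios with exact 95% intervals for Poisson counts and shares with Clopper-Pearson 95% intervals were computed with numpy 2.4.6 and scipy 1.17.1 over all genes of the matrix, and the computation was tested on simulated data. The genes named were the 10 members, further pathway genes past the rule, and the genes most alike each member. Hey1, Jag1 and Jag2 are on the arterial and pathway lists, and Hes6, Dll3 and Mfng on the neurogenic and pathway lists. Alternatives covered the minimum level, the fold, doublets, clustering, edgeR 4.0.16 TMM factors, weighting, each library left out, thinning and the detection threshold. Gene positions come from the GENCODE annotation of GRCm38.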

Additional observations from a re-analysis of the deposited data

How the results depend on the processing

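At a minimum of 10 CPM, Notch2 was no longer tested against endothelium from either side, which left 6 members called between neuroepithelium and endothelium, against 7, and 5 between endothelium and mesenchyme, against 6. The share of all genes called at that minimum is not set beside these counts, which describe the members only. At 1 CPM, Dll1 was called higher in neuroepithelium and in endothelium than in mesenchyme, and Dtx4 lower in endothelium than in mesenchyme, as was Hes1 at 1.5-fold. Under the other alternatives, 252 ratios of called members were recomputed over the 4 comparisons, of which 250 kept the call, 0 reversed, and 2 lost it, both Lfng between optic vesicle-like and other neuroepithelial cells (0.53 with libraries weighted equally, 0.58 without library 5, against 0.44). Another 2 moved by over 1.5 times and kept the call, Lfng between endothelium and mesenchyme (17.9 without library 1, against 11.6) and Dll4 between neuroepithelium and endothelium (0.0011 without library 3, against 0.0019). Dll4 between endothelium and mesenchyme gave no ratio without library 3, which holds its 1 mesenchymal UMI. The number of members called between optic vesicle-like and other neuroepithelial cells was 0 with equal weights and 0 to 3 with each library left out, against 1. The share of all genes called in these settings is not set beside those counts. TMM factors shifted all ratios of a comparison by 0.00, -0.09, 0.10 and 0.01 (log2).

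The count of all genes called moved with the rule. Neuroepithelium against mesenchyme gave 528 genes at a minimum of 10 CPM, 1673 at 1 CPM and 1399 at 1.5-fold, against 846. Neuroepithelium against endothelium gave 3483 at 1 CPM and 3562 at 1.5-fold, against 2169, and endothelium against mesenchyme 2703 and 3094, against 1702. Optic vesicle-like against other neuroepithelial cells gave 106, 318 and 324, against 163.

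Detection shares depend on depth. At 5000 UMIs, with at least 2 UMIs and without thinning, Hes5 was found in 7.38%, 4.36% and 22.6% of optic vesicle-like and 15%, 10.5% and 42.2% of other neuroepithelial cells, and both effectors in 4.16%, 2.05% and 21.8%, and in 7.89%, 6.46% and 39.3%. The share stayed lower in the optic vesicle in each. At 5000 UMIs, 0 neurogenic genes were called in Dll1-positive cells, against 1, and in Dll4-positive cells 1 venous gene, against 2, and 3 arterial genes, against 4, with Efnb2 and Unc5b lost and Gja5 gained. The alternatives without shared barcodes, without cells under 20000 UMIs, with these lists at 5000 UMIs and with Hes1 and Hes5 levels under rebuilt classes were chosen after seeing the data. No paired test was run, as no p-value was computed. The classes compared come from the same libraries, and the pooled ratios do not use that pairing. The classes were set side by side within each library for the direction of every call.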
